A study of Mus musculus with 11 samples.

Results

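The libraries labelled with the multi-site YAP mutant were compared with libraries of both single-site mutants, to describe the expression that sets them apart. The labels spell this group YAP-S5A and the series text YAP-5SA. They were taken to mean one construct, called YAP-5SA here. All 11 libraries entered the comparison: 3 YAP-5SA libraries on one side, and 3 YAP-S127A with 5 TAZ-S89A libraries on the other, the latter groups weighted equally. A gene counted as outside when each of the 3 YAP-5SA libraries lay above, or each below, all 8 others. Of 18224 genes tested, 3384 lay above (18.6%) and 2649 below (14.5%), 6033 in all. These shares are the background for every list below.

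The RNA came from mouse cell lines of liver tumours that carried YAP or TAZ with serines changed to alanine. YAP-S127A and TAZ-S89A are each changed at the 1 serine in the name. YAP-5SA is changed at further serines that the kinases of the Hippo pathway phosphorylate. No promoter, strain, age or vector is given in the labels, and no line without such a mutant was analysed here. Whether a group's libraries are different lines, different tumours or repeat cultures is not stated in the labels. All p-values thus rest on the spread among these libraries, possibly only technical spread, and a mutant's effect cannot be told apart from that of the line carrying it.

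Yap1 encodes YAP and Wwtr1 encodes TAZ, which are transcriptional coactivators. In the nucleus they bind TEAD factors and raise the expression of genes for growth, matrix and adhesion. LATS kinases phosphorylate them on several serines, which keeps them in the cytoplasm or marks them for degradation. In liver, active YAP is known to drive overgrowth and to shift hepatocytes towards a biliary or progenitor state.

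Total counts ran from 20071144 to 49159713 per library. The replicate numbers used here follow the order of sample IDs within each group and are not in the labels. The correlation of log2 CPM across genes, which are not independent replicates, was 0.987 to 0.994 within YAP-5SA. It was 0.861 to 0.872 between YAP-5SA and YAP-S127A, and 0.851 to 0.868 between YAP-5SA and TAZ-S89A. Within YAP-5SA, replicate 2 stood apart: a chi-square of counts per degree of freedom was 90.2 and 143 against replicates 1 and 3, and 16.8 between those. Replicate 2 was the farthest of the 3 libraries in 58.9% of tested genes. TAZ-S89A replicates 1 and 2 (5.98) and replicates 4 and 5 (2.08) were near-pairs, while its other pairs ran from 110 to 236. In YAP-S127A the pair of replicates 1 and 2 was similarly close at 6.72, and the other pairs were at 16.8 and 35.7. This chi-square also grows with the number of counts, so pairs of unlike depth are not strictly comparable. TAZ-S89A replicates 4 and 5 held the fewest counts, 20246736 and 20071144, and YAP-5SA replicate 2 the most, 49159713. The sample IDs in the labels fall into 2 number series, and TAZ-S89A replicates 4 and 5 are the only libraries of the second. The tissue label of all libraries is liver, yet 22 of 29 matched hepatocyte markers stayed at or below 1 CPM in every library, and Serpina1a, Pck1, G6pc, Cyp3a11 and Fgg had no count in any. Albumin (Alb) was at 0.107, 0.0239 and 0.0726 CPM in YAP-5SA against 0.656 to 1.3 in YAP-S127A and 0 to 0.0223 in TAZ-S89A.

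The genes outside the other groups carried a large share of the RNA. Genes above held 27.3% to 28.1% of counts in YAP-5SA libraries and 11.7% to 12.4% in the others. Genes below held 5.0% to 6.45% in YAP-5SA libraries and 12.3% to 16.3% in the others. The levels given throughout are CPM after scaling the libraries to one another, and a log2 fold change compares YAP-5SA with the mean of the other groups. Edges were often narrow: the median gap between the nearest libraries was 0.49 above and 0.33 below on the log2(CPM + 0.5) scale, and 957 and 377 genes had a gap of at least 1. Sfr1 lay just inside at 121.48 CPM in the lowest YAP-5SA library against 121.46 in the highest other, and Snn just outside at 54.914 against 54.917. On the lower side, Zfp638 lay just inside at 81.254 against 81.257. By edgeR's quasi-likelihood test, 5571 genes (30.6%) were higher and 4723 (25.9%) lower at a Benjamini-Hochberg adjusted p under 0.05. Of these, 4340 overlapped at least 1 other library, and 79 genes outside the other libraries were not called. Within the first ID series alone, 3575 genes lay above and 3316 below, and 5849 were called higher and 5433 lower. Over all genes the median log2 fold change was 0.04. Genes above were protein-coding in 84.2% of cases, against 78.4% of genes below and 77.6% of all tested. The same libraries chose these genes and gave their fold changes, so the fold changes describe them and are no further support.

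Among the genes with the largest gap above the others was Bcl2l15 (Entrez gene 229672, chromosome 3, 103831036 to 103854618, GRCm38.p6), a relative of the BCL2 apoptosis regulators. It was at 663, 741 and 612 CPM in YAP-5SA, at 1.51, 1.38 and 1.42 in YAP-S127A and at 1.93, 1.31, 1.19, 1.71 and 1.46 in TAZ-S89A. Every YAP-5SA library was far above every other, at a log2 fold change of 8.82 (SE 0.18). Aldh3a1, an aldehyde dehydrogenase, was at 1457, 2210.4 and 1391 CPM in YAP-5SA against 0.423 to 0.944 in YAP-S127A and 36.2 to 79.5 in TAZ-S89A. The cornified envelope gene Sprr2h was at 66.6, 71.5 and 80.4 CPM in YAP-5SA against 0.0669 to 0.131 in YAP-S127A and 0.354 to 0.652 in TAZ-S89A. The phosphodiesterase gene Pde6a, the leukotriene receptor gene Cysltr1 and Samd12 had fold changes of 8.69 (SE 0.25), 8.68 (SE 0.27) and 9.08 (SE 0.24). Fam163a stood at 8.52 (SE 0.21), the chloride channel protein gene Clic5 at 8.16 (SE 0.24) and Crct1 at 7.78 (SE 0.26). Sh3rf2 was at 38.7, 36.6 and 45.1 CPM in YAP-5SA against 0 to 0.23 in YAP-S127A and 0 to 0.0815 in TAZ-S89A. Fam3b, a secreted cytokine-like protein gene, was at 27.6, 23.3 and 28.9 CPM in YAP-5SA against 0 to 0.0656 in YAP-S127A and 0 to 0.0708 in TAZ-S89A. No library of another group came within reach of the YAP-5SA level for any of these genes.

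On the lower side, Clca3a1 (Entrez gene 12722, chromosome 3, 144729677 to 144760977), of a secreted family that modulates chloride currents, was at 0.107, 0.167 and 0.194 CPM in YAP-5SA, at 603, 592 and 559.7 in YAP-S127A and at 102, 90.1, 69.4, 74.2 and 74.3 in TAZ-S89A. Both other groups expressed it and YAP-5SA libraries held a few counts each, at -10.41 (SE 0.30). Piezo2, a mechanically gated channel, fell by 10.37 on the log2 scale and Eya4, a transcriptional coactivator, by 9.72. Foxf1, a mesenchymal forkhead factor, and its neighbouring noncoding gene Fendrr stood at -7.89 (SE 0.39) and -8.92 (SE 0.39). The secreted follistatin-like gene Fstl1 (-7.74, SE 0.39) and the NADPH oxidase subunit gene Cyba (-7.67, SE 0.57) were low in the same way. The adhesion receptor gene Adgrl2 (-7.57, SE 0.54) and the nonmuscle myosin gene Myh10 (-6.53, SE 0.34) were low as well. In each of them the highest YAP-5SA library was below the lowest of the 8 others.

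**Figure D1:**
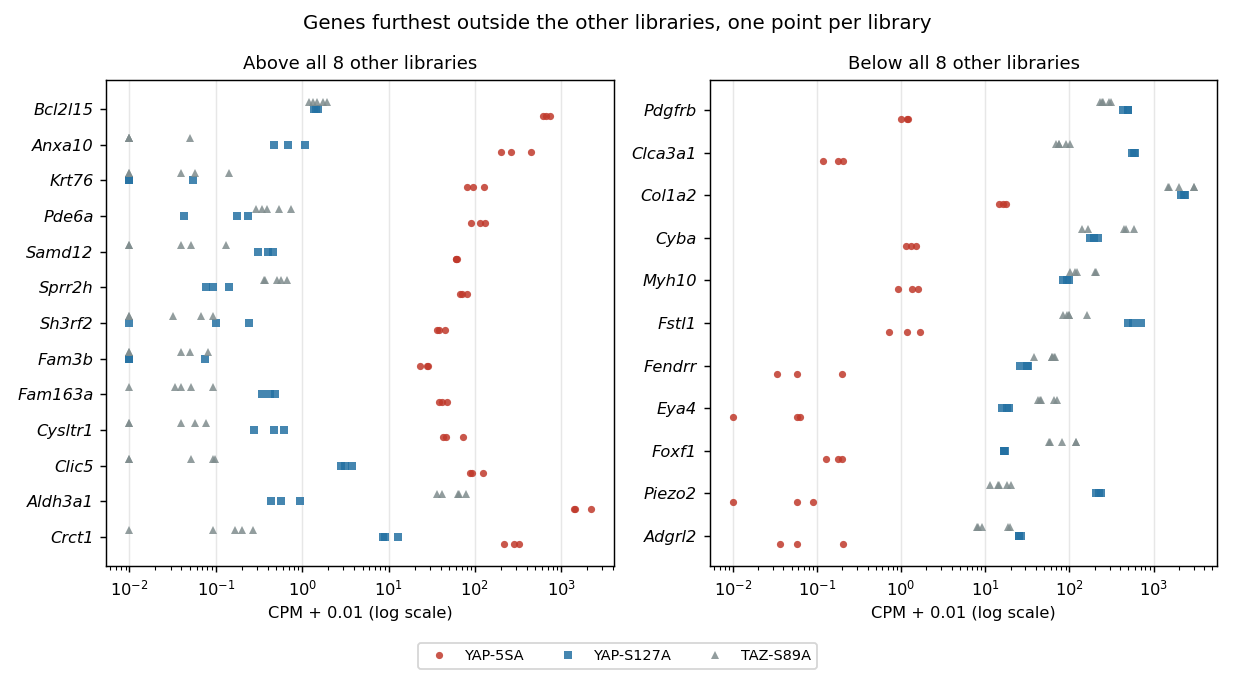
CPM + 0.01 on a log scale in each of the 11 libraries for genes with the largest gaps or fold changes; points are libraries and colours the 3 groups. In every gene the 3 YAP-5SA points lie to one side of the 8 others, for example Bcl2l15 at 612 to 741 CPM against at most 1.93.

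Of 29 gene lists, 21 had at least 20 tested genes. Within those 21, the lists of HOX genes, keratins, NRF2 targets and p53 targets with cell cycle inhibitors had the highest shares above the other libraries. Mesenchymal and matrix genes and cholesterol synthesis genes had the highest shares below. Each list's counts are to be read against the shares of all genes: 30.6% called higher, 25.9% lower, 18.6% above and 14.5% below. The low-count filter could be met by the YAP-5SA libraries alone. Members with counts almost only there, such as Krt6a, H2-Aa and Ctss, entered a list only because they were high in YAP-5SA. Their place among the members higher or above was thus set by entry and is no support.

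**Figure D2:**
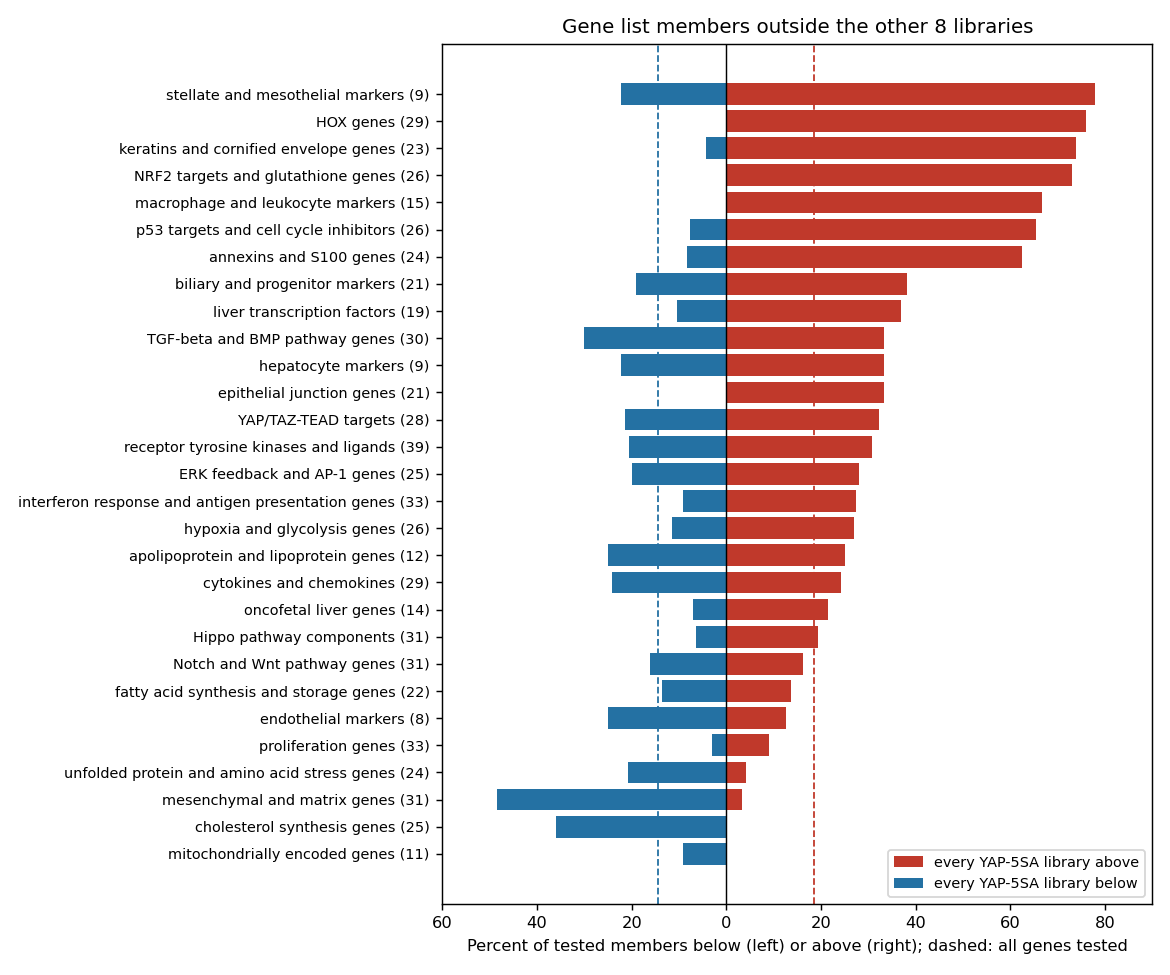
Percent of the tested members of each list (number tested in parentheses) that lie above, to the right, or below, to the left, all 8 other libraries; dashed lines are the shares of all genes tested, 18.6% and 14.5%. HOX genes reach 22 of 29 above, and mesenchymal and matrix genes 15 of 31 below.

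Among the coactivators, YAP-5SA libraries held more Wwtr1 than all others, and Yap1 lay between the other groups. Yap1, on chromosome 9 from 7931999 to 8004638, was measured at 162, 172 and 179 CPM in YAP-5SA, at 209, 197 and 185 in YAP-S127A and at 55.3, 50.8, 66, 82.3 and 78 in TAZ-S89A. YAP-5SA lay just under YAP-S127A and well above TAZ-S89A, with a log2 fold change of -0.20 against the former and 1.36 against the latter. Against their mean it was 0.58 (SE 0.15), edgeR adjusted p = 0.00541. The TAZ gene Wwtr1, on chromosome 3 from 57455644 to 57575910, was measured at 130.5, 152 and 139 CPM in YAP-5SA, at 65.8, 65.3 and 68.2 in YAP-S127A and at 69.2, 67.2, 86.8, 96.3 and 92 in TAZ-S89A. All 3 YAP-5SA libraries were above the 8 others, at 0.93 (SE 0.13), edgeR adjusted p = 3.53e-05. These counts do not separate an endogenous transcript from an introduced copy. Of the TEAD factors, Tead2 and Tead3 were below all others. Tead2 was at 42.2, 37.5 and 40.8 CPM in YAP-5SA against 63.7 to 67.5 in YAP-S127A and 83.5 to 100.4 in TAZ-S89A. Tead3 was at 12.8, 8.12 and 13.2 CPM in YAP-5SA against 39.5 to 44.7 in YAP-S127A and 16.7 to 21.3 in TAZ-S89A. Tead1 and Tead4 were not called at 0.17 (SE 0.17) and -0.06 (SE 0.12), edgeR adjusted p = 0.408 and 0.68. Tead1 in YAP-5SA lay between the other groups.

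Of 31 tested Hippo pathway components, 11 were higher and 7 lower, and 6 lay above and 2 below, with a median log2 fold change of 0.13. Wwc1, the gene of a scaffold that activates LATS kinases, was at 229.9, 182 and 234 CPM in YAP-5SA against 58.7 to 61.2 in YAP-S127A and 102 to 143 in TAZ-S89A. The phosphatase gene Ptpn14, whose protein binds YAP, was at 409, 302 and 429 CPM in YAP-5SA against 213 to 248 in YAP-S127A and 83.3 to 121 in TAZ-S89A. Both are also counted as YAP targets. The kinase gene Stk3, upstream of LATS, was at 30.5, 39.1 and 34.6 CPM in YAP-5SA against 14.1 to 17.4 in YAP-S127A and 14.5 to 28.6 in TAZ-S89A. Lats1, Lats2, Nf2 and Amot were not called (0.11, SE 0.13, 0.26, SE 0.12, 0.01, SE 0.12 and -0.20, SE 0.15). Scaled by library total alone, 3 members lay above and 4 below.

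Among 28 canonical YAP/TAZ-TEAD targets, 14 were higher and 7 lower, and 9 lay above and 6 below. The number lower was near the share of all genes, 25.9%, and the number higher was above the share of 30.6%. Their median was 0.57 against the mean of the other groups, -0.08 against YAP-S127A and 0.73 against TAZ-S89A, comparisons that share the YAP-5SA libraries. Ccn1, a secreted matricellular protein gene, was at 542, 481 and 538 CPM in YAP-5SA, at 383, 352 and 349.6 in YAP-S127A and at 212, 195, 259, 299.8 and 303 in TAZ-S89A. Every YAP-5SA library was above every other, at 0.78 (SE 0.17), edgeR adjusted p = 0.00149. Ankrd1, a nuclear ankyrin repeat protein gene and a widely used YAP readout, was at 129, 128 and 138 CPM in YAP-5SA, at 259, 248 and 251 in YAP-S127A and at 292, 286, 294, 284 and 284 in TAZ-S89A. It was lower than in every other library, at -1.04 (SE 0.13), edgeR adjusted p = 1.59e-05. Ccn2, the relative of Ccn1, was at 639, 616 and 647 CPM in YAP-5SA, at 726, 695 and 702 in YAP-S127A and at 162, 148, 213, 321 and 327 in TAZ-S89A. YAP-5SA was below YAP-S127A and above TAZ-S89A. Its fold change of 0.64 (SE 0.24) was called at an edgeR adjusted p of 0.0352. That call was lost with upper-quartile factors (0.0569), with limma-voom (0.0709) and without each of the 6 YAP libraries in turn. Those adjusted p values were 0.0892, 0.0723 and 0.0874 without YAP-5SA replicates 1 to 3, and 0.0588, 0.0653 and 0.0606 without YAP-S127A replicates 1 to 3. Without TAZ-S89A replicate 3 the value was 0.0518 (range 2.89e-05 to 0.0892 over 20 alternatives). Scaled by library total alone, 6 targets lay above and 6 below. Amotl2, an angiomotin gene, was called higher at 0.92 (SE 0.17) with overlapping libraries (878, 647 and 912 CPM in YAP-5SA against 639.9 to 714 in YAP-S127A and 246 to 303 in TAZ-S89A).

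Secreted and surface products led the targets that rose. Areg, which encodes an EGF receptor ligand, was at 62.5, 80.1 and 57.5 CPM in YAP-5SA against 8.63 to 9.47 in YAP-S127A and 0.468 to 1.42 in TAZ-S89A. F3, which encodes tissue factor, the initiator of coagulation, was at 203, 249 and 204 CPM in YAP-5SA against 14.1 to 16.6 in YAP-S127A and 36.8 to 58.3 in TAZ-S89A. The IGF-binding protein gene Igfbp3 was at 665, 929.7 and 635 CPM in YAP-5SA against 55.2 to 69.96 in YAP-S127A and 122 to 199 in TAZ-S89A. Their log2 fold changes were 4.62 (SE 0.20), 3.0 (SE 0.15) and 2.97 (SE 0.18). The strongest fall was in the RNA-binding protein gene Rbms3, at 0.0802, 0.119 and 0.121 CPM in YAP-5SA against 27.8 to 30.2 in YAP-S127A and 3.91 to 5.48 in TAZ-S89A. Endothelin 1 (Edn1), a vasoconstrictor peptide gene, was below all others too, at -1.09 (SE 0.12).

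Of 23 promoter windows matched to 21 of the target genes in the RefSeq table of GRCm38.p6, 34.8% held the TEAD motif CATTCC on either strand. The share was 11.4% of windows of tested genes, 13.4% of genes above and 10.5% of genes below, each window being the 250 bases before a transcript start. The windows of Ccn1, which was above, and of Ankrd1, which was below, are shown because both hold the motif, in capitals, although the genes moved in opposite directions. A longer antioxidant motif, named below, is also in capitals. A match describes the letters only.
Ccn1 (chr3:145649986-145650235, minus strand): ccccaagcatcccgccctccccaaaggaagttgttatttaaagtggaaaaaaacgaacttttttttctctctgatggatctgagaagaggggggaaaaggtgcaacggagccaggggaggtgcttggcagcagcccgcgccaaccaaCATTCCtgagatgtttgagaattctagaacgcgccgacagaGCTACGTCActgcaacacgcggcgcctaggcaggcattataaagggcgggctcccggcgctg
Ankrd1 (chr19:36119845-36120094, minus strand): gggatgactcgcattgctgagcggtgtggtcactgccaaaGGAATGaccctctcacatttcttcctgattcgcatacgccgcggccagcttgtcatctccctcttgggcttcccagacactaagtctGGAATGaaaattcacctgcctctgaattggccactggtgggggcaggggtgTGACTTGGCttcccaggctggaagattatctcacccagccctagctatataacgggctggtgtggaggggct

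Keratins and cornified envelope proteins, the filaments and outer shell of squamous and simple epithelia, were mostly higher. Of 23 tested, 19 were higher and 2 lower, and 17 lay above and 1 below, with a median of 3.43. Krt7 (Entrez gene 110310, chromosome 15, 101412403 to 101427806), a keratin of simple and ductal epithelium, was at 1601, 2231 and 1398 CPM in YAP-5SA, at 93.7, 93.3 and 118 in YAP-S127A and at 1.04, 1.0, 2.49, 1.63 and 0.876 in TAZ-S89A. YAP-S127A held far less and TAZ-S89A almost none, with a fold change of 7.19 (SE 0.30). The simple keratin gene Krt19 was at 1231, 1758 and 1124 CPM in YAP-5SA against 48.9 to 65.3 in YAP-S127A and 4.32 to 9.92 in TAZ-S89A. Krt8 was at 593, 823 and 579 CPM in YAP-5SA against 29.97 to 35.6 in YAP-S127A and 3.74 to 9.37 in TAZ-S89A. Krt18, the partner of Krt8, was at 2603, 3419.9 and 2435 CPM in YAP-5SA against 151 to 187 in YAP-S127A and 325 to 582 in TAZ-S89A. The fold changes of these 3 genes were 6.08 (SE 0.29), 5.50 (SE 0.27) and 3.43 (SE 0.21). YAP-5SA replicate 2 was the highest library in all 4 keratins.

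Some keratins had counts almost only in YAP-5SA. Krt6a, a keratin of activated epidermis, was at 10.2, 14.6 and 8.64 CPM and had no count in the other 8 libraries. Against a floor of 3 counts over a group it was at least 413-fold higher than YAP-S127A and at least 632-fold higher than TAZ-S89A. Krt4, of mucosal epithelium, was at 13.2, 14.9 and 12.3 CPM and at most 0.0278 elsewhere. Krt76 was at 94.9, 128 and 80.2 CPM in YAP-5SA against 0 to 0.0446 in YAP-S127A and 0 to 0.134 in TAZ-S89A. The basal keratin Krt5 was at 1.23, 1.91 and 1.21 CPM in YAP-5SA against 0 to 0.0669 in YAP-S127A and 0 in TAZ-S89A. In each of these 4 genes every YAP-5SA library was above the others. Other keratins of stratified epithelium also had counts in the other groups. Krt14 was at 4.17, 3.9 and 3.73 CPM in YAP-5SA against 0.111 to 0.278 in YAP-S127A and 0.501 to 0.897 in TAZ-S89A. Krt13 was at 2.14, 2.92 and 1.14 CPM in YAP-5SA against 0.164 to 0.361 in YAP-S127A and 0.775 to 2.46 in TAZ-S89A, overlapping TAZ-S89A, and Krt16 overlapped it too. Among precursors of the cornified envelope, Sprr1a was at 1172, 1261 and 1187 CPM in YAP-5SA against 81.9 to 90.8 in YAP-S127A and 58.7 to 99.98 in TAZ-S89A. Ivl, which encodes involucrin, was at 10.4, 13.4 and 9.37 CPM in YAP-5SA against 0.328 to 0.579 in YAP-S127A and 0.134 to 0.204 in TAZ-S89A. All YAP-5SA libraries were above the others for both, with fold changes of 3.96 (SE 0.18) and 5.24 (SE 0.18). Sfn, the 14-3-3 sigma gene, was the member below, at -1.32 (SE 0.29), and the transglutaminase gene Tgm2 was called lower with libraries between the other groups (-0.73, SE 0.12). Sprr1b was not called and was the one envelope gene held mainly by TAZ-S89A, at 0.187, 0.0478 and 0.0242 CPM in YAP-5SA against 0 in YAP-S127A and 12.5 to 18.4 in TAZ-S89A. Keratin and Sprr genes are similar in sequence, so reads may be shared between members. With a strict low-count filter (1 CPM or more in 3 libraries, average log2 CPM 1 or more), 12 of 14 tested members were higher. The 3 YAP-5SA libraries alone can meet the first condition, so list counts under this filter, here and below, are no further support. Over all genes 4021 were called higher under it, and no share was computed.

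The AP-1 motif TGANTCA, bound by FOS and JUN dimers, was in 37.5% of 16 windows of 14 keratin and envelope genes on either strand. It was in 5.28% of windows of tested genes, 7.10% of those above and 4.43% of those below. Matches were also in windows of Lor, of Krt13, which overlapped TAZ-S89A, and of Sprr1b, which was not called. The windows of Sprr1a and Ivl are shown with the motif in capitals. The first Sprr1a match overlaps a match to the antioxidant motif described below.
Sprr1a (chr3:92485882-92486131, minus strand): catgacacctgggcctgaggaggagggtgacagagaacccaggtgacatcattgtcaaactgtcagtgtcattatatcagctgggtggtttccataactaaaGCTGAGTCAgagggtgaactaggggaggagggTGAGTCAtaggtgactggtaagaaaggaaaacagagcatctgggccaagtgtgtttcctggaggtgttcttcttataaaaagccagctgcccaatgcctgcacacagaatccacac
Ivl (chr3:92573736-92573985, minus strand): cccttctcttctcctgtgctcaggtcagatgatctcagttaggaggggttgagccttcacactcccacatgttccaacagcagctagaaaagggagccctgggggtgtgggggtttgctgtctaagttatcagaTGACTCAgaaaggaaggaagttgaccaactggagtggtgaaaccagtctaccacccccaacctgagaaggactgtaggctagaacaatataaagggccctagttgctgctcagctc

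Epithelial junction genes were higher in part. Of 21 tested, 12 were higher, 1 lower and 8 not called, and 7 lay above and none below, with a median of 0.91. The tight junction gene Cldn3 was at 9.38, 11.8 and 7.67 CPM in YAP-5SA against 0 to 0.0278 in YAP-S127A and 0 to 0.0815 in TAZ-S89A. Cldn6 was at 16.7, 20.3 and 19.4 CPM in YAP-5SA against 6.93 to 8.3 in YAP-S127A and 0.522 to 0.734 in TAZ-S89A, a fold change of 3.13 (SE 0.12). The desmosome plaque gene Dsp (3.37, SE 0.17) and the epithelial splicing regulator gene Esrp2 (1.99, SE 0.15) lay above too. E-cadherin (Cdh1) was not called, with YAP-5SA libraries at 1.66, 1.31 and 1.62 CPM, between YAP-S127A at 11 to 12.6 and TAZ-S89A at 0.189 to 0.841. Pkp1, the member called lower, was not called without YAP-5SA replicate 2 or 3 or without YAP-S127A replicate 1.

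Among 24 annexin and S100 genes, families of calcium-binding proteins, 18 were higher and 2 lower, and 15 lay above and 2 below, with a median of 1.31. Anxa10, an annexin of gastric and urothelial epithelium, was at 261, 448 and 203 CPM in YAP-5SA against 0.459 to 1.05 in YAP-S127A and 0 to 0.0408 in TAZ-S89A. YAP-5SA was 418-fold above YAP-S127A, and TAZ-S89A held 1 count in all. S100a9, an alarmin of myeloid cells and stressed epithelium, was at 4.92, 5.42 and 4.89 CPM in YAP-5SA against 0 to 0.0278 in YAP-S127A and 0 to 0.029 in TAZ-S89A. Its partner S100a8 was at 2.83, 2.94 and 3.07 CPM in YAP-5SA against 0.0556 to 0.134 in YAP-S127A and 0.0236 to 0.111 in TAZ-S89A. Both were near 0 outside YAP-5SA. Anxa13 went the other way, at 0.134, 0.0717 and 0.0242 CPM in YAP-5SA against 0.689 to 1.11 in YAP-S127A and 5.54 to 11.8 in TAZ-S89A.

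Mesothelial and stellate markers gave 9 tested members, of which 7 lay above and 2 below. Upk1b, a uroplakin gene that mesothelium shares with urothelium, was at 104, 151 and 102 CPM in YAP-5SA against 3.34 to 4.95 in YAP-S127A and 0.0891 to 0.261 in TAZ-S89A. Upk3b was at 31.7, 33.1 and 31.3 CPM in YAP-5SA against 0.694 to 1.54 in YAP-S127A and 0.134 to 0.285 in TAZ-S89A. Their fold changes were 6.98 (SE 0.20) and 6.04 (SE 0.20). Podoplanin (Pdpn) was at 2.19, 4.04 and 2.76 CPM in YAP-5SA against 1.05 to 1.25 in YAP-S127A and 0 to 0.029 in TAZ-S89A. Wt1 and Msln, the markers that define mesothelium most closely, were above as well, at 1.55 (SE 0.19) and 0.92 (SE 0.22). Reln and Lhx2, of stellate cells, were the members below. Over all 17 markers the summed level was 2350 to 2480 CPM in YAP-5SA, 791 to 825 in YAP-S127A and 1080 to 1870 in TAZ-S89A, mostly Msln. Whether the keratin and junction differences follow from cells of this kind was not tested, and fewer cells of a type and less RNA per cell cannot be told apart in bulk RNA.

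HOX genes, the clustered homeobox factors that record position along the body axis, formed the list with the largest median against the mean of the other groups. Of 29 tested members 26 were higher and none lower, and 22 lay above and none below. The median fold change was 6.25, or 6.05 with the 14 members of at most 3 counts in a group set at their bounds. It was 9.41 against TAZ-S89A and 2.69 against YAP-S127A, comparisons that share the YAP-5SA libraries. Against YAP-S127A the medians of the keratin list (4.1) and of macrophage and leukocyte markers (3.57) were larger. Hoxc13 was at 25.9, 20.9 and 26.2 CPM in YAP-5SA libraries and at 0.245, 0.492 and 0.417 in those of YAP-S127A, with no count in TAZ-S89A. Hoxc10 was at 50.9, 45.1 and 45 and 1.6, 1.97 and 1.61 CPM in the YAP groups, and Hoxc8 at 17, 15.9 and 17.1 and 1.34, 1.31 and 1.11, again with none in TAZ-S89A. Against a floor of 3 counts over the TAZ-S89A group, YAP-5SA was at least 1382-fold higher for Hoxc13, at least 2669.7-fold higher for Hoxc10 and at least 945-fold higher for Hoxc8. Hoxb13, the most posterior gene of its cluster, was at 23, 25.2 and 21.4 CPM in YAP-5SA against 0.525 to 0.639 in YAP-S127A and 0 to 0.0417 in TAZ-S89A. Over YAP-S127A the differences were smaller, 63.3-fold for Hoxc13, 27.2-fold for Hoxc10, 13.3-fold for Hoxc8 and 39.95-fold for Hoxb13. The groups thus stood in 1 order along both clusters, with YAP-5SA first, YAP-S127A second and TAZ-S89A at or near no counts. Hoxa and Hoxd members differed from this. Hoxa4, Hoxa6, Hoxa7 and Hoxa10 were above all others, and Hoxa2, Hoxa3 and Hoxd8 were not called. Hoxd3 and Hoxd4 were called higher than the mean of the other groups although YAP-5SA lay below YAP-S127A. Hoxd4, for example, was at 0.962, 0.693 and 0.847 CPM in YAP-5SA against 1.69 to 2.67 in YAP-S127A and 0 to 0.0408 in TAZ-S89A. With a strict low-count filter fewer members were tested and 17 of 18 were higher, but members such as Hoxc13 reached its CPM limit in YAP-5SA alone.

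**Figure D3:**
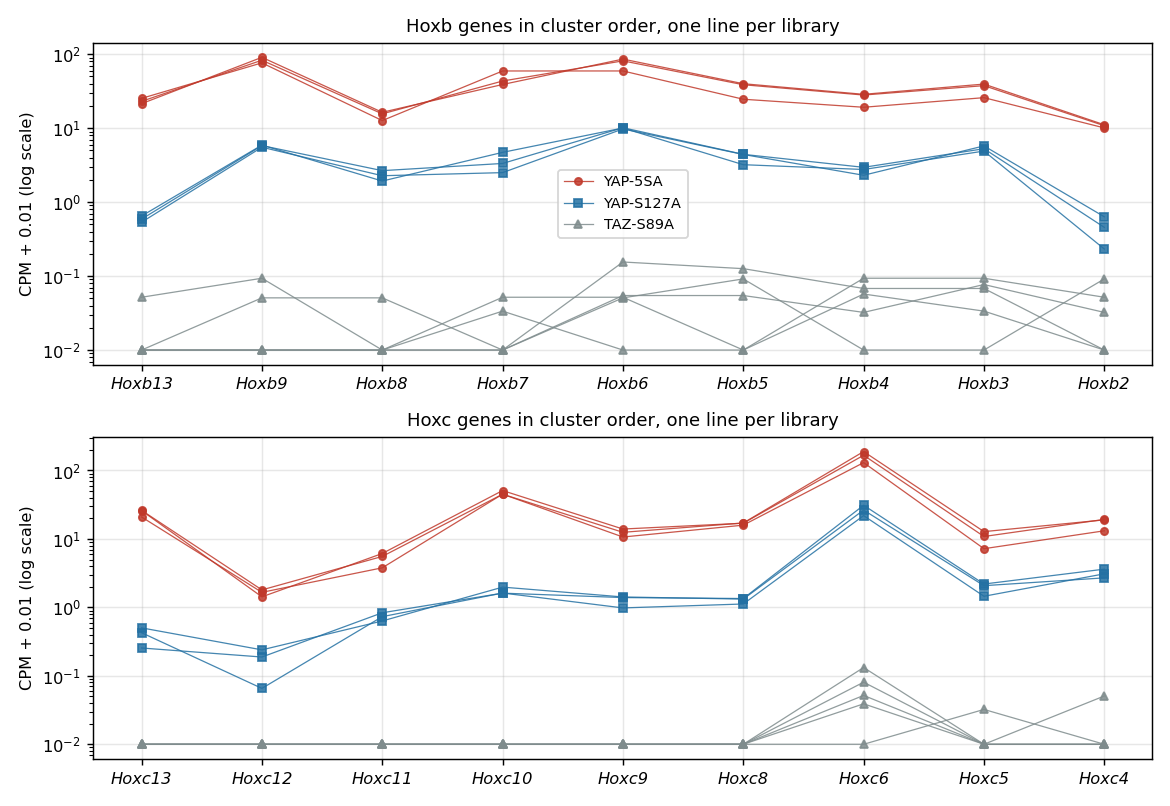
CPM + 0.01 on a log scale for Hoxb (top) and Hoxc (bottom) genes in their order along the cluster, with 1 line per library. YAP-5SA lines run above YAP-S127A lines at each gene, and TAZ-S89A lines lie near the floor of 0.01.

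Genes of the NRF2 pathway were mostly higher. NRF2 (gene Nfe2l2) is the factor that switches on genes for glutathione, quinone and aldehyde detoxification, and KEAP1 marks it for degradation. Of 26 tested members 23 were higher and none lower, and 19 lay above and none below, with a median of 1.51. Nfe2l2 was at 184, 211 and 201 CPM in YAP-5SA, at 68.7, 66 and 62.9 in YAP-S127A and at 40.4, 38.4, 47.8, 84.5 and 81.5 in TAZ-S89A. All YAP-5SA libraries were above all others, at 1.68 (SE 0.22), edgeR adjusted p = 1.62e-05. Keap1 rose less, at 0.39 (SE 0.13), edgeR adjusted p = 0.0161. Among the targets, Nqo1, a quinone reductase gene, was at 28.3, 48.1 and 26.1 CPM in YAP-5SA, at 0.914, 1.02 and 0.833 in YAP-S127A and at 1.06, 0.914, 1.39, 0.612 and 1.13 in TAZ-S89A. Neither other group passed a few CPM, and the fold change was 5.13 (SE 0.21). Gsta3, a glutathione transferase gene, was at 28.6, 36.3 and 24.7 CPM in YAP-5SA against 1.97 to 2.27 in YAP-S127A and 0.209 to 0.667 in TAZ-S89A. Its relative Gsta4 was at 509, 651 and 458 CPM in YAP-5SA against 70.5 to 91.1 in YAP-S127A and 5.17 to 10.7 in TAZ-S89A. TAZ-S89A held least of both. Cbr3, a carbonyl reductase gene, was at 21.8, 25 and 16.1 CPM in YAP-5SA against 8.76 to 11.4 in YAP-S127A and 0.0236 to 0.0891 in TAZ-S89A. The thioredoxin reductase gene Txnrd1 rose by less, 1.57 (SE 0.17), from a higher level. Slc7a11, Pgd and Abcc1 were not called. YAP-5SA replicate 2 was the highest of the 3 in Aldh3a1, Nqo1, Gsta3, Gsta4 and Cbr3. Without it 19 members lay above and 22 were called higher. Leaving out a YAP-5SA library loosens the rule for lying above, so the first of these counts is no support.

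The Ugt1a locus, whose glucuronosyltransferases conjugate bilirubin and drugs, was above as a block and was chosen after its values were seen. Ugt1a1 was at 354, 481 and 356 CPM in YAP-5SA against 3.28 to 4.46 in YAP-S127A and 31.7 to 42.2 in TAZ-S89A. The 8 Ugt1a genes of the block (chromosome 1, 88055411 to 88220002) share exons, and their levels were nearly the same, so they count as 1 observation.

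The antioxidant response motif TGACNNNGC was in 26.9% of 26 windows of 20 NRF2 list genes, on either strand. It was in 11.6% of windows of tested genes, 12.3% of those above and 11.5% of those below. The windows of Gsta3 and of 1 of the starts of Txnrd1 are shown with the match in capitals. No match in a window says only that these letters are not in it.
Gsta3 (chr1:21240335-21240584, plus strand): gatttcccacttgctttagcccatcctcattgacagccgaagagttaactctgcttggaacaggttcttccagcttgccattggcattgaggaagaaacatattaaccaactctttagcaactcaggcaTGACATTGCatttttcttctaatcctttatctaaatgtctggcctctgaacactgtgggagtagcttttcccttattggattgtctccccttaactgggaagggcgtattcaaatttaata
Txnrd1 (chr10:82858956-82859205, plus strand): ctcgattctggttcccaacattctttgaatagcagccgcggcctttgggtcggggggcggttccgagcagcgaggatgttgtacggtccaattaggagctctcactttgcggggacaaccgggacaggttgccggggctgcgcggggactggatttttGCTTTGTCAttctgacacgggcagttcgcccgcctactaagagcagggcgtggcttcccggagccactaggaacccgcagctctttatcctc

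Targets of p53, the tumour suppressor that arrests or kills cells with damaged DNA, were listed together with cell cycle inhibitors and Trp53. Most members of this joint list were higher, and its counts are not those of p53 targets alone. Of 26 tested members 18 were higher, 2 lower and 6 not called, and 17 lay above and 2 below, with a median of 1.67. Trp53 itself was not called, at 0.31 (SE 0.15), edgeR adjusted p = 0.0952. Cdkn1a, which encodes the cell cycle inhibitor p21, was at 272, 261 and 284 CPM in YAP-5SA, at 85, 89.3 and 83 in YAP-S127A and at 3.75, 3.81, 4.15, 7.79 and 6.59 in TAZ-S89A. YAP-5SA was above YAP-S127A in every library and TAZ-S89A held little, at 3.69 (SE 0.19). Mdm2, which encodes the ligase that degrades p53, was at 1045, 1573 and 1031 CPM in YAP-5SA against 157 to 178 in YAP-S127A and 75.1 to 114 in TAZ-S89A, a fold change of 3.34 (SE 0.18). The TNF receptor family genes Eda2r (4.30, SE 0.21) and Fas (3.84, SE 0.17), the BH3-only gene Pmaip1 (3.77, SE 0.13) and the mTOR inhibitor gene Ddit4l (5.68, SE 0.23) had the largest changes. Cdkn1b, the p27 inhibitor gene, was below all others at -1.34 (SE 0.14). Of 33 proliferation genes 5 were higher and 3 lower, and Mki67 was not called (-0.39, SE 0.20). Ccnd1, the cyclin of early G1, was among those that rose, at 2016, 1881 and 2146 CPM in YAP-5SA against 470.3 to 521 in YAP-S127A and 136 to 279 in TAZ-S89A. With the ID series as a covariate 11 proliferation genes were higher, and 9 without TAZ-S89A replicates 4 and 5. The number lower was 5 in both cases and 1 without YAP-5SA replicate 2.

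**Figure D4:**
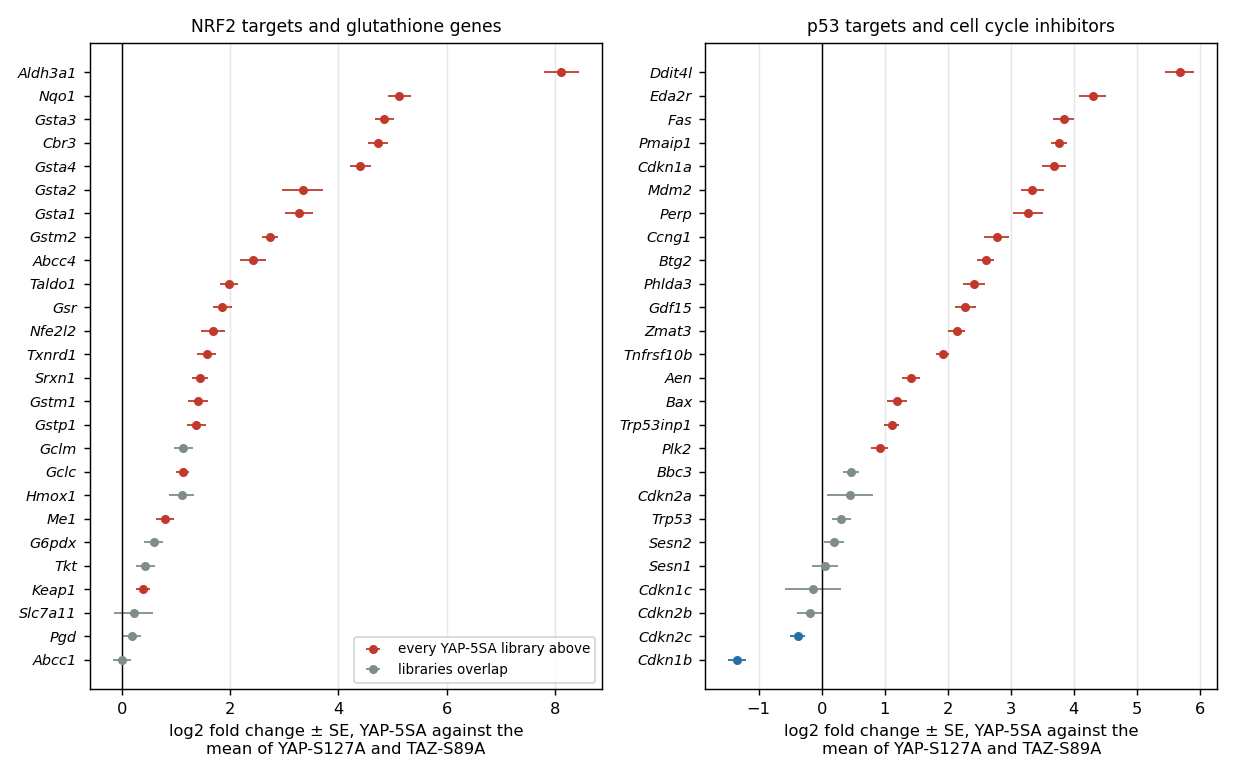
Log2 fold change with its standard error of each tested member of the NRF2 list (left) and the p53 list (right), YAP-5SA against the mean of the other groups; colours show whether the libraries lie outside the 8 others. In the NRF2 list 19 of 26 members lie above and none below. In the p53 list, which includes cell cycle inhibitors, 17 lie above while the inhibitor genes Cdkn1b and Cdkn2c lie below.

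Mesenchymal and matrix genes, the fibroblast-like programme of collagens, contractile proteins and EMT factors, were mostly lower. Of 31 tested, 20 were lower and 4 higher, and 15 lay below and 1 above, with a median of -2.05. The median was -2.93 against YAP-S127A and -0.53 against TAZ-S89A, comparisons with the same YAP-5SA libraries. Col1a2 (Entrez gene 12843, chromosome 6, 4505618 to 4541543), a chain of type I collagen, was at 14.7, 17.8 and 16.1 CPM in YAP-5SA, at 2354, 2325 and 2139 in YAP-S127A and at 2997, 3056, 2021, 1500.4 and 1518 in TAZ-S89A. It was far below every other library, at -7.11 (SE 0.40). The gene for its partner chain, Col1a1, was not called, because YAP-5SA lay between the groups, at 359, 256 and 351 CPM in YAP-5SA against 2755 to 3054 in YAP-S127A and 27.5 to 36.5 in TAZ-S89A. The PDGF receptor gene Pdgfrb, a pericyte and fibroblast marker, was at 1.18, 1.2 and 0.992 CPM in YAP-5SA against 438 to 493 in YAP-S127A and 231 to 315 in TAZ-S89A. Tagln, a smooth muscle actin-binding protein gene, was at 2.25, 1.65 and 3.17 CPM in YAP-5SA against 1018 to 1547 in YAP-S127A and 19.8 to 172 in TAZ-S89A. The matrix gene Postn was at 0.321, 0.335 and 0.266 CPM in YAP-5SA against 21 to 24.8 in YAP-S127A and 23.4 to 34 in TAZ-S89A. None of these 3 genes overlapped another group. Their fold changes were -8.31 (SE 0.25), -7.12 (SE 0.80) and -6.40 (SE 0.21). The EMT factor genes Snai1, Snai2, Twist1 and Twist2 were also below all others, at -2.30 (SE 0.12), -2.88 (SE 0.32), -2.08 (SE 0.17) and -2.65 (SE 0.18). Vimentin (Vim) was the member above, at 4138, 4551 and 4149.5 CPM in YAP-5SA against 2432 to 2612 in YAP-S127A and 1294 to 1966 in TAZ-S89A. N-cadherin (Cdh2) was higher than the mean with overlapping libraries (0.79, SE 0.14), and Zeb1 was not called (-0.24, SE 0.13).

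Endothelial and stromal markers were checked beside these genes. Endothelial markers summed to 19.2 to 20.9 CPM in YAP-5SA, 241 to 265 in YAP-S127A and 16.8 to 22.4 in TAZ-S89A, and of 8 tested 2 were higher and 3 lower. Flt1, a VEGF receptor gene, was at 0.962, 0.741 and 1.23 CPM in YAP-5SA against 66.2 to 77.5 in YAP-S127A and 6.44 to 10.4 in TAZ-S89A. Pecam1, a defining endothelial gene, was at 0.454, 0.358 and 0.266 CPM in YAP-5SA against 0.0556 to 0.223 in YAP-S127A and 0 to 0.209 in TAZ-S89A. It lay above the others, and its call was lost without YAP-5SA replicate 1 at an edgeR adjusted p of 0.0715 against 0.0154 with all libraries (range 0.00519 to 0.0715 over the alternatives). Without that library no endothelial marker was called higher. Mesothelial and stellate markers summed higher in YAP-5SA, as given above. The part of either cell type in the fall of matrix genes was not tested.

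Hepatocyte and progenitor markers gave a mixed picture. Apob, which encodes the structural protein of liver lipoproteins, was at 745, 673 and 759.6 CPM in YAP-5SA against 72.7 to 82.1 in YAP-S127A and 1.29 to 2.83 in TAZ-S89A, a fold change of 5.83 (SE 0.19). Fah and Ass1, amino acid enzymes, lay above as well (3.07, SE 0.13 and 3.59, SE 0.27). Ambp was at 0, 0 and 0.0242 CPM in YAP-5SA against 0.722 to 0.78 in YAP-S127A and 0.0408 to 0.891 in TAZ-S89A. Only 9 of 30 hepatocyte markers could be tested, of which 5 were higher and 2 lower. The summed level of the 29 matched markers, mostly Apob in YAP-5SA, was 772 to 837 CPM in YAP-5SA, 160.0 to 164 in YAP-S127A and 24.4 to 36.7 in TAZ-S89A. Among 19 liver transcription factors 9 were higher and 5 lower, and 7 lay above and 2 below. Their median log2 fold change was 0.04, the same as over all genes. The members below were Sox9 and Lhx2 (-3.37), which other lists count too. Gata4, an early endoderm factor, was at 18.4, 16.1 and 18.9 CPM in YAP-5SA against 1.15 to 1.2 in YAP-S127A and 0.118 to 0.626 in TAZ-S89A. Foxa2, a pioneer factor of liver, was at 25, 21.9 and 25.4 CPM in YAP-5SA against 7.64 to 8.62 in YAP-S127A and 0.118 to 0.612 in TAZ-S89A. The nuclear receptor gene Nr5a2 was at 1.1, 1.0 and 1.14 CPM in YAP-5SA against 0 to 0.0556 in YAP-S127A and 0 to 0.058 in TAZ-S89A. Hnf4a was called higher at 1.59 (SE 0.13) but overlapped YAP-S127A. The 5 lower calls fell to 3 when YAP-5SA replicate 2 or either of YAP-S127A replicates 1 and 2 was left out.

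Biliary and progenitor markers split: of 21 tested, 11 were higher and 5 lower, and 8 lay above and 4 below. The keratins above led those that rose. The biliary factor gene Sox9 was below all others, at 8.47, 6.24 and 9.2 CPM in YAP-5SA against 18.8 to 19.5 in YAP-S127A and 13.5 to 22.4 in TAZ-S89A. Osteopontin (Spp1), a secreted phosphoprotein of bile ducts, was below them too, at 189, 256 and 162 CPM in YAP-5SA against 285 to 372 in YAP-S127A and 1669 to 3586 in TAZ-S89A. The summed level was 6640 to 9480 CPM in YAP-5SA, 923 to 1100 in YAP-S127A and 2710 to 4740 in TAZ-S89A. In YAP-5SA it was mostly Krt7, Krt8, Krt18 and Krt19, which the keratin list counts too. In TAZ-S89A, Spp1 alone held 1669 to 3586 of it. Of 14 oncofetal genes 6 were higher and 3 lower. Lin28b, which blocks let-7 maturation, was at 7.24, 5.26 and 6.75 CPM in YAP-5SA against 0.847 to 1.17 in YAP-S127A and 0 to 0.111 in TAZ-S89A. The mRNA-binding protein genes Igf2bp1 and Igf2bp3 rose by 1.53 and 0.98 on the log2 scale. Igf2 was below the others at 0.428, 0.0956 and 0.169 CPM in YAP-5SA against 1.17 to 1.51 in YAP-S127A and 0.448 to 0.668 in TAZ-S89A, and Afp was not called (-0.31, SE 0.20).

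Cholesterol synthesis genes, which SREBP2 controls, were lower in part. Of 25 tested, 12 were lower and 3 higher, and 9 lay below and none above, with a median of -0.55. Insig1, which retains SREBP in the endoplasmic reticulum, was at 27.5, 32.5 and 24.4 CPM in YAP-5SA, at 89.3, 87.2 and 99.2 in YAP-S127A and at 106, 112, 151, 119.9 and 128 in TAZ-S89A. All YAP-5SA libraries were below all others, at -1.92 (SE 0.15). Dhcr7, which encodes an enzyme of the last step, was at 9.17, 7.29 and 8.69 CPM in YAP-5SA against 19.6 to 22.4 in YAP-S127A and 24.3 to 31.8 in TAZ-S89A. Dhcr7 and Fdps were lower at -1.53 (SE 0.13) and -1.09 (SE 0.13). Srebf2 and Sqle were not called, at -0.32 (SE 0.14) and 0.03 (SE 0.14). In lipid handling, the lipase gene Lpl was at 95, 142 and 93.5 CPM in YAP-5SA against 32.4 to 39.4 in YAP-S127A and 0 to 0.204 in TAZ-S89A. Fatty acid genes were 8 higher and 4 lower of 22. Pparg, an adipogenic nuclear receptor gene, and Lpin1 rose (1.27, SE 0.13 and 1.42, SE 0.12), and Elovl1 was below the others (-0.99, SE 0.10). Of 12 apolipoprotein and lipoprotein genes 4 were higher and 5 lower. Pltp and Abcg1 lay above (1.81, SE 0.09 and 2.75, SE 0.23) and Lcat below (-2.01, SE 0.20).

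Of 39 receptor tyrosine kinases and ligands 17 were higher and 12 lower, and 12 lay above and 8 below. The EGF receptor gene Egfr was at 270, 239 and 289.9 CPM in YAP-5SA, at 85.3, 87.9 and 83.1 in YAP-S127A and at 39.8, 33.6, 30.4, 40.7 and 41.4 in TAZ-S89A. It was above all others, at 2.24 (SE 0.12), as were the genes of its ligands Areg, Ereg, Hbegf, Tgfa and Btc. Fgf1 was at 20.8, 19.8 and 18.8 CPM in YAP-5SA against 2.64 to 2.85 in YAP-S127A and 0.0223 to 0.167 in TAZ-S89A. Hgf, the ligand of MET, was at 0.0534, 0.0239 and 0.0968 CPM in YAP-5SA against 0.492 to 0.668 in YAP-S127A and 32.1 to 53.9 in TAZ-S89A, low in both YAP groups. Met was not called (0.05, SE 0.17). Scaled by library total alone, 8 members lay above and 8 below. Among 25 ERK feedback and AP-1 genes 13 were higher and 5 lower. Dusp6, an ERK-induced phosphatase gene that limits ERK, was at 327, 374 and 328 CPM in YAP-5SA against 137 to 151 in YAP-S127A and 21 to 33.8 in TAZ-S89A. Phlda1, also induced by ERK, was at 309, 263 and 296 CPM in YAP-5SA against 47.9 to 54 in YAP-S127A and 27.1 to 49 in TAZ-S89A. The 5 lower members, all below every other library, were the immediate early genes Egr1, Egr2, Egr3, Ier2 and Jun. Egr1 was at 9.14, 5.42 and 7.77 CPM in YAP-5SA against 55.5 to 60.5 in YAP-S127A and 59 to 92.2 in TAZ-S89A. Egr2 was at 0.16, 0.167 and 0.145 CPM in YAP-5SA against 11.6 to 13 in YAP-S127A and 1.06 to 1.88 in TAZ-S89A. Jun stood at -1.31 (SE 0.19). Of the other immediate early genes, Fos and Fosb were not called, and Fosl1 and Atf3 lay above.

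In the TGF-beta and BMP pathway 15 of 30 genes were higher and 10 lower, and 10 lay above and 9 below. The BMP ligand gene Bmp2 was at 4.52, 5.23 and 4.38 CPM in YAP-5SA against 1.25 to 1.58 in YAP-S127A and 0 to 0.0708 in TAZ-S89A. Id1 and Smad6, which BMP can induce, were higher too (3.27, SE 0.17 and 1.59, SE 0.12). Both were picked after their values were seen, and BMP signalling was not tested. The activin subunit genes Inhba and Inhbb were below all others. Inhba was at 6.63, 6.48 and 8.96 CPM in YAP-5SA against 104 to 113 in YAP-S127A and 68 to 86.3 in TAZ-S89A. Inhbb was at 0.0534, 0.0478 and 0.145 CPM in YAP-5SA against 0.245 to 0.278 in YAP-S127A and 5.68 to 7.26 in TAZ-S89A. The TGF-beta binding protein gene Ltbp2 was at 0.24, 0.454 and 0.532 CPM in YAP-5SA against 124 to 147 in YAP-S127A and 6.81 to 11.3 in TAZ-S89A. Among 31 Notch and Wnt genes 12 were higher and 11 lower. The Wnt antagonist gene Dkk2 was at 0.267, 0.0239 and 0.0968 CPM in YAP-5SA against 72.4 to 76.4 in YAP-S127A and 1.33 to 1.92 in TAZ-S89A. Rnf43, whose ligase removes Frizzled receptors, was at 46.3, 33.3 and 44.5 CPM in YAP-5SA against 4.01 to 4.62 in YAP-S127A and 1.48 to 2.65 in TAZ-S89A. These Wnt inhibitors moved in opposite directions. Lef1, a nuclear effector of Wnt signalling, had no count in YAP-5SA and was at 0.111 to 0.164 CPM in YAP-S127A and 1.42 to 6.2 in TAZ-S89A. Fzd10, a Wnt receptor gene, was at 0.321, 0.574 and 0.508 CPM in YAP-5SA against 0 in YAP-S127A and 0 to 0.163 in TAZ-S89A. With a strict filter 5 of 20 tested members were lower. Without YAP-5SA replicate 2 the number above was 9 in place of 5, under a rule that fewer libraries make looser.

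Of 29 cytokine genes 9 were higher and 12 lower, and 7 lay above and 7 below. The number higher was near the share of all genes, 30.6%, and the number lower was above the share of 25.9%. Cxcl16, a chemokine made by epithelium and macrophages, was at 49.2, 67 and 42.3 CPM in YAP-5SA against 2.5 to 3.97 in YAP-S127A and 0.232 to 0.49 in TAZ-S89A. The granulocyte-macrophage factor gene Csf2 was at 12.8, 11.2 and 10.9 CPM in YAP-5SA against 0.23 to 0.78 in YAP-S127A and 0.612 to 0.87 in TAZ-S89A. Both were above all others, while stromal products were below. The stromal chemokine gene Cxcl12 was at 0.802, 1.41 and 0.992 CPM in YAP-5SA against 119 to 119.9 in YAP-S127A and 17.6 to 34.7 in TAZ-S89A. The fibroblast cytokine gene Il11 was at 0.668, 0.86 and 0.895 CPM in YAP-5SA against 107 to 128 in YAP-S127A and 3.54 to 6.85 in TAZ-S89A. Of 33 interferon and antigen presentation genes 15 were higher and 6 lower, and 9 lay above and 3 below. The antiviral gene Oasl1 was at 8.18, 9.01 and 8.37 CPM in YAP-5SA against 1.72 to 2.67 in YAP-S127A and 0.087 to 0.25 in TAZ-S89A. Oas1a, an RNA sensor gene, was at 3.63, 5.52 and 3.17 CPM in YAP-5SA against 0 to 0.111 in YAP-S127A and 0 to 0.0472 in TAZ-S89A. Mx1, which encodes an antiviral GTPase, was at 1.47, 1.36 and 1.55 CPM in YAP-5SA against 0 in YAP-S127A and 0.029 to 0.0944 in TAZ-S89A. All 3 were above every other library, as was Oas2, at 0.722, 0.526 and 0.629 CPM in YAP-5SA against 0 to 0.0446 in YAP-S127A and 0.029 to 0.0835 in TAZ-S89A. The class I gene H2-K1 and Oasl2 were below all others (-1.95, SE 0.18 and -2.22, SE 0.24). With a strict filter 8 of 22 tested members were higher.

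Macrophage and leukocyte markers were mostly higher. Of 15 tested 12 were higher and none lower, and 10 lay above and none below. Members such as H2-Aa, Ctss and Laptm5 passed the low-count filter through YAP-5SA alone, so these counts are partly set by entry. Their summed level over 21 genes was 111 to 132 CPM in YAP-5SA, 26.0 to 30.4 in YAP-S127A and 38.0 to 49.7 in TAZ-S89A. The receptor gene Csf1r was at 29.9, 24.4 and 30.3 CPM in YAP-5SA against 7.19 to 7.84 in YAP-S127A and 1.59 to 2.36 in TAZ-S89A. Cd74, the class II invariant chain gene, was at 8.34, 11 and 8.06 CPM in YAP-5SA against 0.0556 to 0.0669 in YAP-S127A and 0.134 to 0.501 in TAZ-S89A. The class II gene H2-Aa was at 1.28, 1.41 and 0.944 CPM with no count elsewhere, at least 45-fold and 68.8-fold above the other groups. The lysosomal protease gene Ctss was at 2.86, 3.01 and 2.86 CPM in YAP-5SA against 0 to 0.0328 in YAP-S127A and 0 to 0.0417 in TAZ-S89A. Laptm5, a lysosomal membrane protein gene of leukocytes, was at 1.44, 1.72 and 1.48 CPM in YAP-5SA against 0 to 0.0446 in YAP-S127A and 0 to 0.0408 in TAZ-S89A. Outside YAP-5SA these last 4 genes were under 1 CPM. Other members had more counts there. Cd14, a lipopolysaccharide coreceptor gene, was at 35.3, 43.1 and 33.1 CPM in YAP-5SA against 8.56 to 13.4 in YAP-S127A and 18.6 to 28.4 in TAZ-S89A. The mannose receptor gene Mrc1 was at 7.91, 14.3 and 10.04 CPM in YAP-5SA against 0.401 to 0.59 in YAP-S127A and 6.89 to 10.8 in TAZ-S89A, and Cd68 at 9.01, 7.89 and 8.52 CPM in YAP-5SA against 5.64 to 5.81 in YAP-S127A and 6.01 to 7.13 in TAZ-S89A. Mrc1 overlapped TAZ-S89A, while Cd14 and Cd68 lay above. The pan-leukocyte gene Ptprc was near 0 in every group (0.134, 0.239 and 0.169 CPM in YAP-5SA against 0.29 to 0.394 in YAP-S127A and 0.0408 to 0.348 in TAZ-S89A), and Marco had no count in any library. The part of leukocytes in the interferon, cytokine and S100 results was not tested. With a strict filter 6 of 6 tested markers were higher, but markers such as Cd74 reached its CPM limit in YAP-5SA alone.

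Among 26 hypoxia and glycolysis genes 13 were higher and 4 lower, and 7 lay above and 3 below. Adm, which encodes the peptide adrenomedullin, was at 87.2, 98.1 and 81.4 CPM in YAP-5SA, at 21.6, 22.7 and 25.7 in YAP-S127A and at 0, 0.0223, 0, 0 and 0 in TAZ-S89A. The YAP groups did not overlap and TAZ-S89A held 1 count in all. Vegfa, the endothelial growth factor gene, went down, at 49.9, 39.6 and 55.5 CPM in YAP-5SA against 328 to 380 in YAP-S127A and 142 to 241 in TAZ-S89A, a fold change of -2.45 (SE 0.21). Egln3 and Pfkfb3 rose by 1.85 and 1.15 on the log2 scale. Scaled by library total alone, 3 members lay above and 3 below. Of 24 stress response genes 4 were higher and 10 lower. The amino acid transporter gene Slc7a5, the serine enzyme gene Shmt2 and Chac1 lay below the others (-1.20, SE 0.26, -0.94, SE 0.18 and -0.82, SE 0.16), and Fgf21 was at 0.107, 0 and 0 CPM in YAP-5SA against 0.512 to 0.754 in YAP-S127A and 0.212 to 0.571 in TAZ-S89A. The number higher was 8 without TAZ-S89A replicates 4 and 5 and with the ID series as a covariate. Of 11 mitochondrially encoded genes 5 were lower. That count was 1 with YAP-5SA replicate 2 left out, 2 with either of its other replicates or YAP-S127A replicate 1 or 2 left out, and 3 with YAP-S127A replicate 3 left out. COX3 was the member below, at -1.20 (SE 0.30).

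Position in the genome, which the choice of genes did not use, was uneven. On chromosome 17 the median log2 fold change of 844 tested genes was -0.79, and 45.1% lay below and 6.40% above. On chromosome 4 it was -0.53 over 993 genes, with 36.5% below and 8.36% above. Chromosomes 15 and 14 lay on the other side, at 0.47 and 0.46, with 29.9% and 30.8% of genes above. The sign was the same against each group alone: chromosome 17 was at -0.70 against YAP-S127A and -0.95 against TAZ-S89A, and chromosome 4 at -0.53 and -0.49. These comparisons share the YAP-5SA libraries. Copy number was not analysed here, and its part in these values was not tested. Of genes named above that lay below, Tead3, Vegfa and H2-K1 are on chromosome 17 and Elovl1, Jun, Sfn, Cdkn2c and Ambp on chromosome 4. Cdkn1a, Cldn6, Clic5, Msln, H2-Aa and Abcg1 lay above although they are on chromosome 17, as did Pdpn and Laptm5 on chromosome 4.

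**Figure D5:**
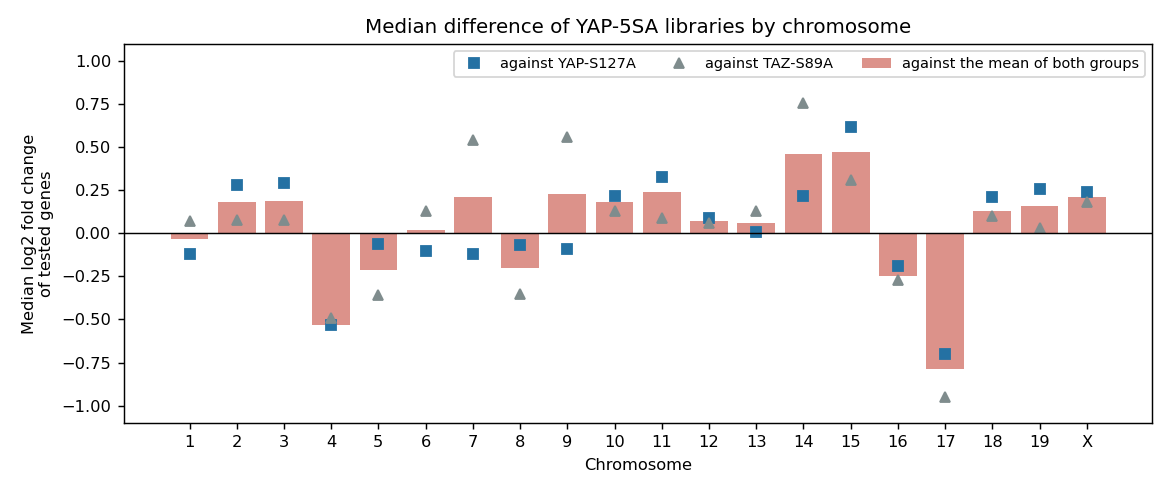
Median log2 fold change of the tested genes on each chromosome, with bars for YAP-5SA against the mean of the other groups and symbols for each group alone. Chromosomes 17 and 4 are lowest at -0.79 and -0.53, and 15 and 14 highest at 0.47 and 0.46.

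Neighbouring genes often lay outside together. Runs of at least 6 adjacent tested genes numbered 22 above and 12 below, and 9 of the 12 below were on chromosome 17. The longest was the Hoxb block, 16 genes on chromosome 11 from 96194316 to 96759622, which takes in Skap1, a gene outside the HOX family. The Hoxc block held 15 genes on chromosome 15 from 102706777 to 103146828, including the noncoding gene Hotair. On the same chromosome a keratin block of 9 genes ran from 101689928 to 102032026. A block of 14 genes on chromosome 6, from 129696118 to 131353836, was mostly Klra genes, which encode receptors of natural killer cells. Another of 7 genes on chromosome 12, from 103996615 to 104414334, was Serpina9 and Serpina3 genes. Serpina3h, of that protease inhibitor family, was at 160.5, 230.5 and 144 CPM in YAP-5SA against 10.8 to 13.2 in YAP-S127A and 1.22 to 3.31 in TAZ-S89A. An S100 and Sprr block of 9 genes lay on chromosome 3 from 90612894 to 92409271. The members of Klra, Serpina3 and Sprr blocks are alike in sequence, and overlapping or antisense genes cannot be told apart because the strand setting is not known. These blocks were described after their values were seen.

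Within YAP-5SA the spread between libraries beyond counting error was 0.174, against 0.0893 in YAP-S127A and 0.247 in TAZ-S89A. Of 36 genes outside the others whose YAP-5SA libraries spanned at least 1 on the log2(CPM + 0.5) scale, replicate 2 was the farthest library in 28. The granzyme inhibitor gene Serpinb9b was at 775, 1527 and 615 CPM in YAP-5SA, at 83.7, 95.9 and 129 in YAP-S127A and at 58.4, 64.8, 104, 32 and 32.2 in TAZ-S89A. Replicate 2 was the highest, and all 3 were above the 8 others. Klhl13 was at 26.1, 57.6 and 24 CPM in YAP-5SA against 7.55 to 13.3 in YAP-S127A and 0.0708 to 0.319 in TAZ-S89A. Mettl7a1 was at 122, 228 and 101 CPM in YAP-5SA against 6.42 to 10.5 in YAP-S127A and 17.5 to 43.4 in TAZ-S89A. Replicate 2 was again the highest in both. The carboxylesterase gene Ces2e was at 19.9, 39.3 and 16.8 CPM in YAP-5SA against 0.579 to 0.656 in YAP-S127A and 0 to 0.0417 in TAZ-S89A. Snord47, a small nucleolar RNA gene, varied on the lower side, at 1.9, 1.1 and 3.12 CPM in YAP-5SA against 5.54 to 9.998 in YAP-S127A and 3.68 to 7.83 in TAZ-S89A. Without replicate 2, 3972 genes lay above and 3166 below, under a rule that fewer libraries make looser.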

How the data were processed

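RNA from 11 mouse libraries was measured by polyA RNA sequencing. Each library had 1 file with a count of uniquely aligning reads per gene, per the file headers, and an RPKM value adjusted by a size factor, deposited by the authors and not used in any test. Reads were aligned with GSNAP to GRCm38, per the submitters' processing notes. The sources used here name no counter, annotation release or strand setting.

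Counts of 36528 Entrez gene IDs were used as deposited. Names and positions came from RefSeq tables of GRCm38.p6, which matched 31049 IDs. The 5479 unmatched IDs held 2.91% of counts. After edgeR's filterByExpr, 18224 genes were tested and 18304 removed. CPM were computed with TMM library sizes. The test was edgeR's quasi-likelihood F test (version 4.0.16, R 4.3.3) on all 3 groups, contrasting YAP-5SA with the equally weighted mean of the other groups, with Benjamini-Hochberg adjustment over all tested genes and a threshold of 0.05. A standard error is the log2 fold change divided by the square root of F. With a group at 0 counts, a fold was computed against a floor of 3 counts over that group. On simulated data for this contrast (17772 genes, 200 genes changed, the rest unchanged) 95.8% and 96.0% of genes changed by -2 and 2 on the log2 scale were recovered, and 70.8% and 66.0% of those changed by -1 and 1. False calls were 6.40% of calls. Unchanged genes had the same mean in all groups there, whereas 10294 of 18224 genes were called in the data. The simulated shares thus do not describe the error of the real calls.

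The members and lists were chosen with earlier results of these data known. The genes named were Yap1, Wwtr1, the TEAD factors and 4 readouts, then from each list up to 4 called genes outside the other libraries with the largest fold change. To these came the 10 highest and 10 lowest fold changes, the 8 widest gaps in each direction and the 5 widest ranges within YAP-5SA, at an average log2 CPM of at least 2. Other list members and the genes of neighbouring runs were chosen after their values were seen. Some genes that the rule names are not reported here. Motifs were searched in the 250 bases before RefSeq transcript starts, and this choice of motifs was made with the lists' results known. Total counts ran from 20071144 to 49159713, and counting error alone does not cover differences between cultures. Alternatives were RLE, upper-quartile and library-total scaling, DESeq2 (1.42.0), limma-voom (limma 3.58.1), no filter and a strict filter, the sample ID series, other weights, and each library left out.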

Additional observations from a re-analysis of the deposited data

Results flagged for a closer look

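Among 143 named genes, 15 had 1 TAZ-S89A library whose gap to the nearest of the other 4 exceeded 0.71 of the group's range (Dixon's criterion at 95%). Chance flags about 1 in 20 groups of normally distributed values, and groups of 3 libraries were not checked. Replicate 3 was the distant library in 5 genes. Tead1 was at 78.0 CPM there against 114 to 126, Rbms3 at 3.91 against 5.30 to 5.48 and Fendrr at 37.5 against 62.4 to 67.2. Igfbp3 and Fstl1 were higher there, at 199 against 122 to 137 and at 164 against 83.7 to 99.9. In replicate 2, Elovl1 was at 58.4 against 55.6 to 56.3, Lin28b at 0.111 against 0 to 0.0236 and Adm at 0.0223 against 0. In replicate 4, Cldn3 was at 0.0815 and Laptm5 and Anxa10 at 0.0408, each against 0, and Mycn at 0.0815 against 0 to 0.0236. In replicate 5, Ctss, Hoxb13 and Ces2e were each at 0.0417 against 0. Values under 0.12 CPM here are a few counts at most. A count in 1 library against 0 in the rest is always flagged, so the rate of 1 in 20 does not hold for such genes. None of these libraries reached the YAP-5SA range in the genes that lay outside it.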

How the results depend on the processing

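Of 2836 values of the 143 named genes over 20 alternatives, 2824 kept their direction and side of the threshold, 10 lost their call and 2 changed sign. The 10 were 9 values of Ccn2 and 1 of Pecam1, given above. Tead4, not called at -0.06, was at 0.01 with the 8 other libraries weighted equally and at 0.05 without YAP-5SA replicate 2 (edgeR adjusted p = 0.971 and 0.782), and over single libraries left out it ran from -0.13 to 0.05. Requiring a log2 fold change of at least 1 left 3165 genes higher and 2401 lower, and requiring a gap of at least 1 left 957 above and 377 below. Both follow from a stricter rule. Leaving out 1 library gave 5026 to 5918 genes higher, 4001 to 5062 lower, 3366 to 3972 above and 2663 to 3166 below. Fewer libraries loosen the rule for lying above or below, so those counts are no test of it. The other alternatives gave 4021 to 6408 higher and 3581 to 5491 lower. Scaling by library total moved the median of all genes by -0.15 on the log2 scale, and the share of outside genes that lay above was then 46.6% in place of 56.1%. Scaled so, 12 cholesterol genes lay below in place of 9, and 3 hypoxia genes above in place of 7. Without YAP-5SA replicate 3, 1 p53 list gene was lower in place of 2. The labels give no replicate numbers, and those used here only follow the order of sample IDs, so no paired analysis was possible. Genes at a few counts are limited by depth, and no line without a mutant, strand setting or copy number was used here.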
